A study of Mus musculus with 16 samples.

Results

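Sterol synthesis was followed through 8 genes in mouse striatum: Srebf2 and Insig1, which control the pathway, and Hmgcs1, Idi1, Sqle, Cyp51, Msmo1 and Dhcr7, which encode enzymes of it. Every probe set on the array whose platform annotation gave one of these symbols and no other was taken, and each was compared between genotypes on its own. That gave 17 probe sets, out of 34945 with exactly 1 gene symbol, and 8 genes out of 18193. Hmgcs1 had 5 probe sets, Cyp51 had 3, Msmo1, Idi1 and Srebf2 had 2 each, and Sqle, Insig1 and Dhcr7 had 1 each.

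Cholesterol in the brain is made locally, because lipoproteins of the blood do not cross the blood-brain barrier. SREBP2, the product of Srebf2, is a membrane-bound transcription factor that is carried by the escort protein SCAP from the endoplasmic reticulum to the Golgi when sterol is scarce, is cut there by proteases, and then switches on the genes of the synthesis pathway, its own gene included. INSIG proteins hold SCAP and SREBP2 back when sterol is plentiful, and Insig1 is itself an SREBP target, which closes a feedback loop. In the adult brain oligodendrocytes and astrocytes make much of the cholesterol, and neurons dispose of theirs mainly through the hydroxylase encoded by Cyp46a1.

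RNA of whole striatum was hybridised to 16 Affymetrix Mouse Genome 430 2.0 arrays, 4 for each of 4 genotypes, all of strain B6xCBA, and the labels call the 4 arrays of a genotype biological replicates. The groups were wild type, DREAM+/- (1 knockout allele of DREAM, the calcium-binding repressor encoded by Kcnip3), R6/2 (a transgenic model of Huntington's disease) and R6/2 x DREAM+/- (both). The R6/2 transgene is driven by the promoter of human huntingtin and encodes only the start of that protein, with an expanded polyglutamine stretch, so these mice model the disease through a fragment. The labels give neither age nor sex and do not say whether animals were pooled, and they describe DREAM knockout mice bred to R6/2 mice. The series title names neuroprotection by DREAM silencing, so the comparisons ask what the R6/2 transgene does with and without the knockout allele, and what that allele does with and without the transgene.

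SREBP2 binds sites that often lie before the start of its targets, so the bases upstream of the annotated starts are shown first. RefSeq (GRCm38.p6) gave a start for 7 of the 8 genes, and Sqle had no entry in the table used. The windows searched ran from 250 bases before the start to 50 after it, on both strands. A sterol regulatory element is the SREBP binding site, and CCAAT boxes (bound by NF-Y) and GC boxes (bound by Sp1) commonly lie beside it. The first 250 bases of the window, 5′ to 3′ on the gene's strand, are printed for 4 genes with a match to a sterol element and for Idi1, which had none and held the lowest of the 17 differences in R6/2 against wild type. Capitals mark matches, on either strand, to a form of the sterol element or to CCAAT.
Hmgcs1 (chr13:119690101-119690350, plus strand): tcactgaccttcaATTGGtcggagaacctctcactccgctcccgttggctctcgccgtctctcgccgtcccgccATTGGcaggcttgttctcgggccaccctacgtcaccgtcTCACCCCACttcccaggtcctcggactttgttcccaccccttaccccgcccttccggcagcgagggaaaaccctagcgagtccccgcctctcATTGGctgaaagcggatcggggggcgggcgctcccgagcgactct
Msmo1 (chr8:64733579-64733828, minus strand): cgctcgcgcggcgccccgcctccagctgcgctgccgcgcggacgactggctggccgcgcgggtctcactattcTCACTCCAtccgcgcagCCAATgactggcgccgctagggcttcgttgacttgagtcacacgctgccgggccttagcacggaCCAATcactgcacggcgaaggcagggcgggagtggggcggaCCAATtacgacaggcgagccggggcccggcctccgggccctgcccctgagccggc
Srebf2 (chr15:82147019-82147268, plus strand): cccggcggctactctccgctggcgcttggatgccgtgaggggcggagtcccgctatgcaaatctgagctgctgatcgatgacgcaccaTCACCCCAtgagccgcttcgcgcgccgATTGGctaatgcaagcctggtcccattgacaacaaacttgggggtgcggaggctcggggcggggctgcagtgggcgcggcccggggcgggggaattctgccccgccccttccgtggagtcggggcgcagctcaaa
Insig1 (chr5:28071162-28071411, plus strand): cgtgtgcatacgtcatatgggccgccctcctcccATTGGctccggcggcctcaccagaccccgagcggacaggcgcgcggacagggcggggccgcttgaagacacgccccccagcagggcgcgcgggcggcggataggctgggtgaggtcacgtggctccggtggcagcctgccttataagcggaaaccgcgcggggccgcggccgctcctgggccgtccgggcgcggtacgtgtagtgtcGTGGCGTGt
Idi1 (chr13:8885356-8885605, plus strand): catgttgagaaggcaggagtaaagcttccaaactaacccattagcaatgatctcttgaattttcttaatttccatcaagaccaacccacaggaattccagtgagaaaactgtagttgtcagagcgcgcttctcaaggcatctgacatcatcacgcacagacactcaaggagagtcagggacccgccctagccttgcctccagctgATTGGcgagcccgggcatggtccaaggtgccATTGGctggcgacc

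The 7 genes had 9 windows, since Dhcr7 had 3 annotated starts, and windows are compared with all 32851 windows. The full element TCACNCCAC lay in 1 of the 9 windows, as TCACCCCAC at -137 (bases from the start) in Hmgcs1, against 1.2% of all windows. The shorter CACNCCAC, which overlaps it, lay in 2 of the 9, those of Hmgcs1 and Insig1, against 6.2%. Another form, TCACNCCA, also overlapping it, was added after the sequences had been seen. It lay in 3 of the 9, at -137 in Hmgcs1, as TCACTCCA at -177 in Msmo1 and as TCACCCCA at -162 in Srebf2, against 4.4%. CCAAT lay in 7 of the 9 windows, at least 1 for each gene, against 37.4%. The GC box GGGCGG lay in 8 of the 9, also at least 1 for each gene, against 35.7%. In 11 other enzymes of the pathway with an entry, counted as genes, TCACNCCAC lay in 0 (1.4% of all genes), CACNCCAC in 1 (7.1%), TCACNCCA in 0 (5.0%), CCAAT in 10 (41.1%) and GGGCGG in 10 (38.2%). A match is a description of these letters and not evidence that a factor binds there.

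The targeted gene was lower in both groups labelled DREAM+/-. Kcnip3 on its brighter probe set (1418544_at) averaged 9.67 ± 0.24 for wild type and 7.77 ± 0.04 for DREAM+/- (SD, n = 4, log2). The R6/2 arrays averaged 9.11 ± 0.09 and the double genotype 7.56 ± 0.12. DREAM+/- thus stood at 26.9% of wild type and the double genotype at 34.1% of R6/2. On the other probe set (1449129_a_at) they stood at 13.0% and 16.6%. Why the values were this low with 1 knockout allele was not tested. Replicates of a genotype correlated at 0.9903 to 0.998 over all 45101 probe sets of the array. Replicate 1 of R6/2 read 6.49 for the X-inactivation transcript Xist (1436936_s_at), against 11.04 to 12.16 on the other arrays. For the Y-linked gene Eif2s3y (1417210_at) it read 8.91, against 6.16 to 8.05 on the others. Replicate 3 of R6/2 x DREAM+/- scored 35.7 on the third principal component, against -14.5 to 5.01 elsewhere. These 2 are the arrays called standing apart below. Wild-type replicate 3 also differed from its group and was kept in the fits without both of those arrays. It held the -14.5, and on the first component it scored -7.8. The other wild-type arrays scored 9.1 to 23.8 there, and the DREAM+/- arrays -14.3 to -12.7. The labels name the cell type as striatal neurons, but the protocol used whole striatum, and markers of medium spiny neurons (14 of 14), mature oligodendrocytes (12 of 12) and astrocytes (12 of 12) were all above the 40th percentile of probe-set brightness.

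All values are the authors' log2 probe-set values, and a negative difference means that the first group named is lower. Differences were tested with limma over all 34945 single-symbol probe sets, with p-values adjusted by the Benjamini-Hochberg method and called under 0.05, and intervals are 95% intervals. Of the 17 probe sets 14 lay above the 40th percentile of brightness (5.94), and the other 3 (Hmgcs1 1441536_at, Cyp51 1422534_at and Msmo1 1459627_at) are called dim below. Levels of different genes or probe sets are not compared with each other, because probes differ in how brightly they report.

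The 8 genes had lower means with the R6/2 transgene on both backgrounds, though not every probe set was called. They were chosen with earlier results of these data known. The counts here and below therefore describe the set and do not test it, and shares over all probe sets are given for scale. Against wild type, 13 of the 17 probe sets, in 7 of the 8 genes, were called lower in R6/2 and 0 higher, where 6.42% of all probe sets were called lower and 13.2% in either direction. All 17 differences were negative, with a median of -0.40 against 0.02 over all probe sets and a range of -0.68 to -0.02. In 12 of the 17 every R6/2 array lay below every wild-type array, as in 7.91% of all probe sets. On the DREAM+/- background 11 of the 17, again in 7 genes, were called lower and 0 higher, where 4.01% of all probe sets were called lower and 6.93% in either direction. All 17 differences there were negative too, with a median of -0.35 against 0.01 over all probe sets, and in 12 of the 17 the groups did not overlap, as in 5.81% of all probe sets. In tissue RNA, fewer cells of a type and less RNA per cell cannot be told apart.

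**Figure D1:**
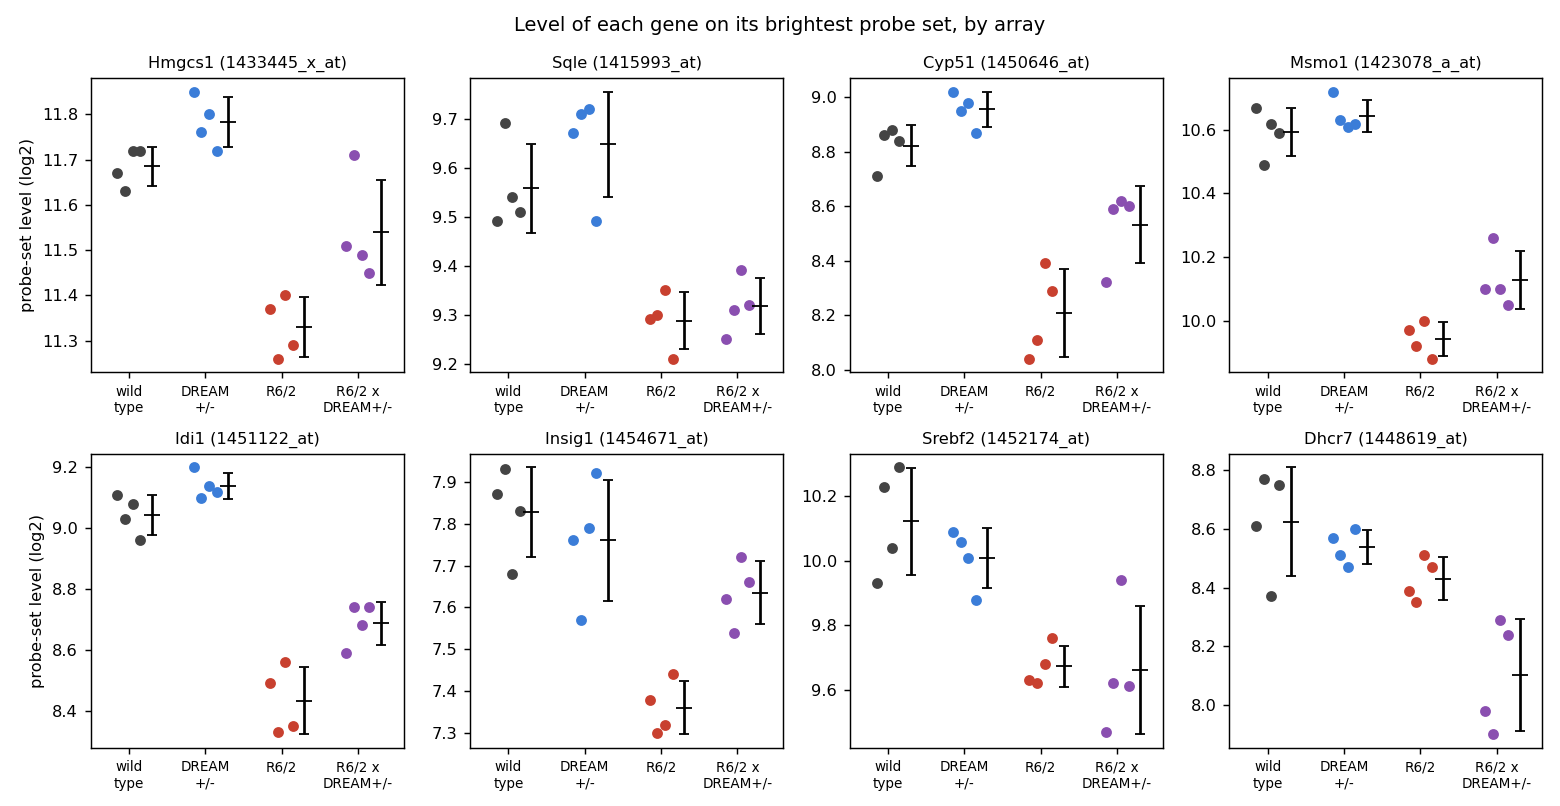
Level of each of the 8 genes on its brightest probe set (y axis, log2, a separate scale for each gene) in the 16 arrays, with 1 point per array and a bar for the mean ± SD of each genotype (n = 4). R6/2 arrays lie below all wild-type arrays in each panel except that of Dhcr7, and the R6/2 x DREAM+/- arrays lie lowest in that of Dhcr7.

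Among the regulators, Srebf2, the gene of the transcription factor itself, was lower with the transgene. On its brighter probe set (1452174_at) the wild-type arrays read 9.93, 10.23, 10.04 and 10.29, and the R6/2 arrays 9.63, 9.62, 9.68 and 9.76. All R6/2 arrays were below all wild-type arrays, and R6/2 stood at 73.2% of wild type (log2 difference -0.45, interval -0.65 to -0.25, adjusted p = 0.00379). DREAM+/- arrays read 10.09, 10.06, 10.01 and 9.88, and R6/2 x DREAM+/- arrays 9.47, 9.62, 9.94 and 9.61, of which only replicate 3 reached the DREAM+/- range. That difference was -0.35 (interval -0.55 to -0.15, adjusted p = 0.0303). The other Srebf2 probe set (1426744_at) fell by 0.47 against wild type (adjusted p = 0.00956), and gave -0.35 on the DREAM+/- background, which was not called (adjusted p = 0.0649). That second probe set was called in 3 of the 16 fits without 1 array, and in 5 of 9 other alternatives (lowest adjusted p = 0.00619). Within genotypes the 2 Srebf2 probe sets moved together from array to array (r = 0.73 over 16 arrays). The call of 1452174_at on the DREAM+/- background was lost without any 1 of 6 arrays, replicates 1, 2 and 4 of R6/2 x DREAM+/- and replicates 1, 2 and 3 of DREAM+/- (highest adjusted p = 0.105).

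Insig1, the feedback brake of the pathway, had 1 probe set (1454671_at). Wild-type arrays read 7.87, 7.93, 7.68 and 7.83 and R6/2 arrays 7.38, 7.30, 7.32 and 7.44. The groups were apart, and R6/2 stood at 72.3% of wild type (log2 difference -0.47, interval -0.62 to -0.32, adjusted p = 0.000352). DREAM+/- arrays read 7.76, 7.57, 7.79 and 7.92 and R6/2 x DREAM+/- arrays 7.62, 7.54, 7.72 and 7.66, so these groups overlapped. The difference there was -0.12 (interval -0.28 to 0.03, adjusted p = 0.38). Insig1 was thus the only gene of the 8 with no called probe set on the DREAM+/- background, as Dhcr7 was against wild type.

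The first enzyme of the set, Hmgcs1, makes HMG-CoA in the cytosol, the substrate of the rate-limiting reductase. Its brightest probe set (1433445_x_at) read 11.67, 11.63, 11.72 and 11.72 in wild type and 11.37, 11.26, 11.40 and 11.29 in R6/2. It read 11.85, 11.76, 11.80 and 11.72 in DREAM+/- and 11.51, 11.71, 11.49 and 11.45 in R6/2 x DREAM+/-. In both pairs all arrays with the transgene were below all arrays without it, though replicate 2 of the double genotype, at 11.71, came close to the lowest DREAM+/- array, at 11.72. R6/2 stood at 78.2% of wild type (log2 difference -0.36, interval -0.48 to -0.23, adjusted p = 0.000661). The double genotype stood at 84.5% of DREAM+/- (log2 difference -0.24, interval -0.37 to -0.12, adjusted p = 0.0184), a call that was lost without replicate 1 or 4 of R6/2 x DREAM+/- or replicate 1 or 3 of DREAM+/- (highest adjusted p = 0.0643).

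The other 3 bright Hmgcs1 probe sets gave -0.38 (1433443_a_at), -0.40 (1433444_at) and -0.46 (1433446_at) against wild type, all called (adjusted p of 0.000626, 0.00031 and 0.0014). Against DREAM+/- they gave -0.43, -0.20 and -0.40. The first and the last of these were called (adjusted p of 0.000486 and 0.00784), and 1433444_at was not (adjusted p = 0.0639). The dim probe set 1441536_at gave -0.12 and -0.25, neither called (adjusted p of 0.372 and 0.0736). Within genotypes 1433445_x_at, 1433444_at and 1433446_at moved together (r of 0.54 to 0.73 over 16 arrays), while 1433443_a_at, which the annotation ties to the same sequence record as these 3, gave r of -0.10 and -0.04 with the latter pair.

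Idi1 encodes the isomerase that makes dimethylallyl diphosphate, the starter unit of isoprenoid chains. On 1451122_at wild-type arrays read 9.11, 9.03, 9.08 and 8.96 and R6/2 arrays 8.49, 8.33, 8.56 and 8.35. DREAM+/- arrays read 9.20, 9.10, 9.14 and 9.12 and R6/2 x DREAM+/- arrays 8.59, 8.74, 8.68 and 8.74. The transgene separated the groups on both backgrounds with no overlap. The differences were -0.61 (65.4% of wild type, interval -0.74 to -0.49, adjusted p = 5.07e-06) and -0.45 (73.1% of DREAM+/-, interval -0.58 to -0.33, adjusted p = 0.000178). The second probe set, 1423804_a_at, gave -0.68 against wild type, the lowest of the 17 differences (interval -0.94 to -0.41, adjusted p = 0.00153). On the DREAM+/- background it gave -0.47 (adjusted p = 0.0308), a call that was lost without any 1 of 5 arrays, replicates 2 and 4 of R6/2 x DREAM+/- and replicates 1, 2 and 4 of DREAM+/- (highest adjusted p = 0.11).

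Sqle encodes squalene epoxidase, which commits squalene to sterols. Its probe set (1415993_at) read 9.49, 9.69, 9.54 and 9.51 in wild type and 9.29, 9.30, 9.35 and 9.21 in R6/2. It read 9.67, 9.71, 9.72 and 9.49 in DREAM+/- and 9.25, 9.31, 9.39 and 9.32 in R6/2 x DREAM+/-. Neither pair overlapped. R6/2 stood at 82.9% of wild type (log2 difference -0.27, interval -0.40 to -0.14, adjusted p = 0.00742) and the double genotype at 79.6% of DREAM+/- (log2 difference -0.33, interval -0.46 to -0.20, adjusted p = 0.00315).

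Cyp51 encodes the demethylase that starts the trimming of lanosterol. Its brightest probe set (1450646_at) read 8.71, 8.86, 8.88 and 8.84 in wild type and 8.04, 8.11, 8.39 and 8.29 in R6/2. It read 9.02, 8.95, 8.98 and 8.87 in DREAM+/- and 8.32, 8.59, 8.62 and 8.60 in R6/2 x DREAM+/-, where replicate 1 lay below the other 3. Both pairs were apart. The differences were -0.61 (65.3% of wild type, interval -0.79 to -0.44, adjusted p = 8.83e-05) and -0.42 (74.6% of DREAM+/-, interval -0.59 to -0.25, adjusted p = 0.00364). The next probe set (1422533_at) gave -0.35 (adjusted p = 0.0298) and -0.23 (adjusted p = 0.2). Its call against wild type was lost without any 1 of 5 arrays, R6/2 replicates 1 and 4 and wild-type replicates 1, 2 and 3 (highest adjusted p = 0.0839). The dim probe set (1422534_at) gave -0.02 (adjusted p = 0.909) and -0.30 (adjusted p = 0.0141), so the 3 probe sets of Cyp51 did not rank the 2 contrasts alike.

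Msmo1 encodes the methylsterol monooxygenase, which oxidises methyl groups of the sterol for their removal, later in the pathway than Cyp51. On 1423078_a_at wild-type arrays read 10.67, 10.49, 10.62 and 10.59 and R6/2 arrays 9.97, 9.92, 10 and 9.88. DREAM+/- arrays read 10.72, 10.63, 10.61 and 10.62 and R6/2 x DREAM+/- arrays 10.10, 10.26, 10.10 and 10.05. Every array with the transgene was below every array without it. R6/2 stood at 63.7% of wild type (log2 difference -0.65, interval -0.77 to -0.53, adjusted p = 1.79e-06) and the double genotype at 69.9% of DREAM+/- (log2 difference -0.52, interval -0.64 to -0.40, adjusted p = 3.34e-05). These were the lowest adjusted p of the 17 probe sets in each contrast. The dim probe set 1459627_at gave -0.05 and -0.08 (adjusted p of 0.714 and 0.558).

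Dhcr7 encodes the reductase of the last step to cholesterol, and its order of groups differed from that of the other enzymes. On 1448619_at wild-type arrays read 8.61, 8.77, 8.37 and 8.75 and R6/2 arrays 8.39, 8.35, 8.51 and 8.47. The ranges overlapped through wild-type replicate 3, at 8.37, and the difference of -0.20 was not called (interval -0.39 to 0.00, adjusted p = 0.191). Without that array it was called (adjusted p = 0.0447). DREAM+/- arrays read 8.57, 8.51, 8.47 and 8.60 and R6/2 x DREAM+/- arrays 7.98, 7.90, 8.29 and 8.24. These did not overlap, and the double genotype stood at 74.0% of DREAM+/- (log2 difference -0.43, interval -0.63 to -0.24, adjusted p = 0.00793).

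**Figure D2:**
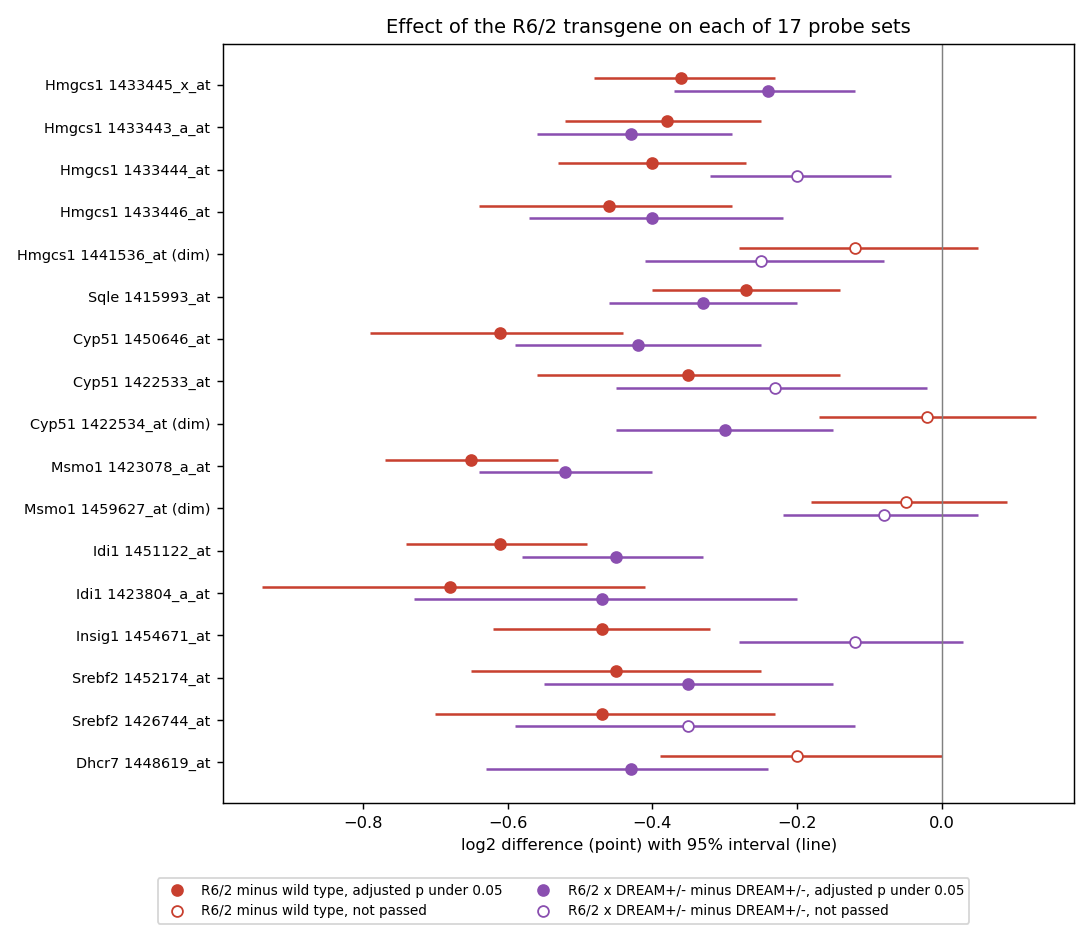
Log2 difference (point, x axis) with its 95% interval (line) for each of the 17 probe sets, in R6/2 against wild type and in R6/2 x DREAM+/- against DREAM+/-, where a filled point has an adjusted p under 0.05 and dim marks a probe set under the 40th percentile of brightness. All points of both contrasts lie below 0, and 13 of the first contrast and 11 of the second are filled.

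When arrays were left out 1 at a time, 12 or 13 of the 17 were called lower in R6/2 against wild type. The number was 12 without both arrays that stand apart. Over all probe sets 10.2% to 15.5% were called in either direction when 1 array was left out, and 13.0% without both. On the DREAM+/- background the number ran from 8 (without replicate 4 of R6/2 x DREAM+/- or replicate 1 of DREAM+/-) to 12. It was 12 without both arrays that stand apart. The share over all probe sets ran from 3.93% to 8.23% there, and was 7.87% without both.

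The knockout allele alone gave no call in the sterol genes. In DREAM+/- against wild type 0 of the 17 probe sets passed, where 2.26% of all probe sets did, and 13 differences were positive and 4 negative, with a median of 0.10 against -0.01 over all probe sets. At an unadjusted p under 0.05 there were 3, all higher in DREAM+/-: Hmgcs1 1433446_at at 0.20, the dim Hmgcs1 1441536_at at 0.28 and the dim Cyp51 1422534_at at 0.20. The lowest adjusted p was that of Hmgcs1 1441536_at, 0.0825. It was called without wild-type replicate 3 (0.00163), which read 4.67 where the other wild-type arrays read 4.25 to 4.35, and with arrays weighted by quality (0.0181). The 4 negative differences were those of Insig1 (-0.07), Srebf2 (-0.11 and -0.21) and Dhcr7 (-0.09). For Msmo1 (1423078_a_at) the interval ran from -0.07 to 0.17 and for Srebf2 (1426744_at) from -0.44 to 0.02.

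On the R6/2 background the same allele came with higher values on some probe sets of 4 genes, Cyp51, Hmgcs1, Insig1 and Idi1, and with a lower value of Dhcr7. In R6/2 x DREAM+/- against R6/2, 5 of the 17 probe sets were called higher and 1 lower, where 3.53% of all probe sets were called higher, 4.22% lower and 7.76% in either direction. The median difference was 0.18 against -0.03 over all probe sets, with 13 positive and 4 negative. The 5 were Cyp51 1450646_at at 0.33 (adjusted p = 0.0217), Hmgcs1 1433444_at at 0.30 (0.0076), Insig1 at 0.28 (0.0285), Idi1 1451122_at at 0.25 (0.0163) and Hmgcs1 1433445_x_at at 0.21 (0.0387). The other probe sets of these genes were not called: Hmgcs1 gave 0.06 on 1433443_a_at (adjusted p = 0.603), 0.26 on 1433446_at (0.0654) and 0.15 on the dim 1441536_at (0.275). Idi1 1423804_a_at gave 0.24 (0.265), Cyp51 1422533_at gave 0.24 (0.167) and the dim Cyp51 1422534_at gave -0.09 (0.498). The 1 lower was Dhcr7 at -0.33 (interval -0.52 to -0.13, adjusted p = 0.0402), where every array of the double genotype was below every R6/2 array. For Msmo1 the groups were also apart, from 9.88 to 10 in R6/2 and from 10.05 to 10.26 in the double genotype, but the difference of 0.18 was not called (interval 0.07 to 0.30, adjusted p = 0.0541). It was called in 5 of 10 other alternatives, among them the common median and both brightness filters (lowest adjusted p = 0.031), and in 0 of the 16 fits without 1 array. Sqle gave 0.03 (interval -0.10 to 0.16, adjusted p = 0.822) and Srebf2 gave -0.01 and -0.10 (adjusted p of 0.957 and 0.641).

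Array values place the double genotype between R6/2 and wild type for some of these genes. For Hmgcs1 on 1433444_at the R6/2 arrays read 11.11, 11.00, 11.19 and 11.01 and the double genotype 11.51, 11.41, 11.29 and 11.29, with no overlap. The wild-type arrays read 11.50, 11.38, 11.50 and 11.52 on that probe set, and 2 of the 4 arrays of the double genotype lay within this range. For Cyp51 on 1450646_at replicate 1 of the double genotype, at 8.32, fell among the R6/2 arrays, and the other 3, at 8.59 to 8.62, lay above all R6/2 arrays and below all wild-type arrays. For Idi1 on 1451122_at all 4 arrays of the double genotype, at 8.59 to 8.74, lay between the R6/2 arrays, at most 8.56, and the wild-type arrays, at least 8.96. This comparison shares the R6/2 arrays with that of R6/2 against wild type, so a low R6/2 array enters both with opposite sign.

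The calls of this comparison depended on single arrays. The 6 calls became 1 without R6/2 replicate 2, 2 without R6/2 replicate 1 and 3 without R6/2 replicate 4. They became 2 without replicate 2 of R6/2 x DREAM+/- and 3 without replicate 1 of it. The share called over all probe sets fell too, from 7.76% to 5.03%, 5.04%, 4.03%, 4.24% and 5.57% in that order. The median of the 17 differences was 0.12 to 0.19 in these fits, against 0.18 with all arrays. Hmgcs1 1433444_at kept its call in all 16 fits without 1 array (highest adjusted p = 0.0289), and the 5 others each lost it in 3 to 10 of them. Shifting the arrays to a common median gave 7 higher and 0 lower in place of 5 and 1, with Dhcr7 at -0.30 (adjusted p = 0.0687). Without both arrays that stand apart 4 were higher and 1 lower, with Hmgcs1 1433446_at gained and Cyp51 1450646_at and Insig1 lost.

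**Figure D3:**
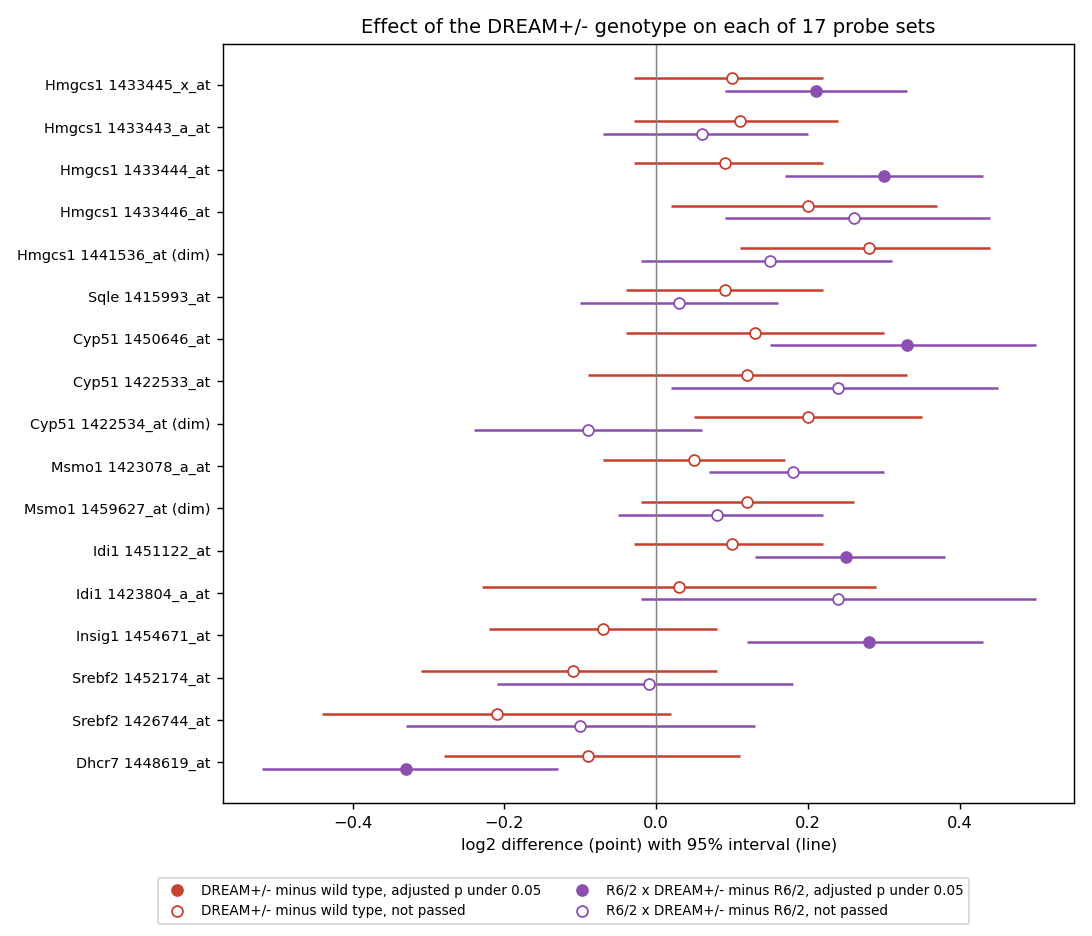
Log2 difference (point, x axis) with its 95% interval (line) for each of the 17 probe sets, in DREAM+/- against wild type and in R6/2 x DREAM+/- against R6/2, with filled points for an adjusted p under 0.05. No point of the first contrast is filled, and of the second 5 are filled above 0 and Dhcr7 below it.

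Whether the difference with the transgene differed between the 2 backgrounds was tested as an interaction. It called 0 of the 17 probe sets and 0 of all 34945 (0%), with 3 of the 17 at an unadjusted p under 0.05 and a lowest adjusted p of 0.724. The largest was that of Insig1, 0.34 (interval 0.13 to 0.56, unadjusted p = 0.00383). The other 2 were Cyp51 1422534_at at -0.29 (interval -0.50 to -0.07) and Hmgcs1 1433444_at at 0.20 (interval 0.02 to 0.38). For Msmo1 (1423078_a_at) the interval was -0.04 to 0.30, and for Dhcr7 -0.52 to 0.04.

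The order of the group means was DREAM+/-, wild type, R6/2 x DREAM+/- and R6/2, from high to low, in 10 of the 17 probe sets, which came from Hmgcs1, Sqle, Cyp51, Msmo1 and Idi1. Neighbours in that order often overlapped: DREAM+/- and wild type did so in 9 of those 10, apart from Hmgcs1 1433444_at. Insig1 had wild type first, with DREAM+/- overlapping it. Both probe sets of Srebf2, and Dhcr7, had wild type first and the double genotype last. The double genotype overlapped R6/2 for Srebf2 and lay apart from it for Dhcr7.

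Within a genotype the brightest probe sets of the 8 genes were not all correlated with each other from array to array. After subtracting each genotype's mean, 17 of the 28 pairs of genes (brightest probe sets, 16 arrays) had a correlation above 0 and 6 above 0.5, with a median of 0.11. Hmgcs1 and Msmo1 were the most alike (r = 0.83), followed by Insig1 and Dhcr7 (0.63), Cyp51 and Srebf2 (0.60), Srebf2 and Dhcr7 (0.59), and Msmo1 and Idi1 (0.55). Msmo1 and Dhcr7 were the least alike (-0.48), and Hmgcs1 gave -0.46 with Dhcr7 and -0.43 with Insig1. Probe sets of the same gene were not always alike either. Their r was 0.10 for Idi1, -0.10 for Cyp51 (1450646_at with 1422533_at) and 0.73 for Srebf2. A low r between genes therefore does not show that their transcripts moved separately. Values on 1 array share its RNA and hybridisation, and these correlations are descriptions.

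Other enzymes of the pathway held a few further calls, led by Fdft1. Of 15 listed, 12 had a single-symbol probe set. For this list and those that follow, counts are over the brightest probe set of each gene. Against wild type 3 of the 12 were lower in R6/2 and 0 higher, where 7.44% of genes were lower and 8.22% higher by the same rule, and the median of the 12 was -0.12 against 0.03 over all genes. Fdft1, squalene synthase, read 10.35, 10.36, 10.35 and 10.12 in wild type and 9.65, 9.72, 9.77 and 9.82 in R6/2, with no overlap. It fell by 0.56 (interval -0.69 to -0.42, adjusted p = 2.17e-05), and in 26 alternative fits it kept that call. Another of its 4 probe sets was also called lower, and the other 2 had the opposite sign and were not called. Ebp, a sterol isomerase, gave -0.22 (adjusted p = 0.0184) and Fdps, which makes farnesyl diphosphate, -0.19 (adjusted p = 0.0346). Fdps lost its call in 9 of 26 alternative fits, and its other probe set had the opposite sign. Nsdhl, a sterol dehydrogenase, gave -0.14 and was not called (adjusted p = 0.147). For Sc5d 1 of 3 probe sets, not its brightest, was also called lower, where 6.42% of all probe sets were. All 3 had the same sign.

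With DREAM+/- as the background 3 of the 12 were lower and 0 higher, where 4.71% of genes were lower, with a median of -0.16 against 0.02 over all genes: Fdft1 at -0.36 (adjusted p = 0.00163), Nsdhl at -0.23 (0.0361) and Fdps at -0.21 (0.0326). Nsdhl lost its call in 9 of 26 alternative fits and Fdps in 8. In DREAM+/- against wild type 1 of the 12 was called, where 2.10% of genes were, Hsd17b7 at 0.34 (adjusted p = 0.0169, lost in 6 of 26 fits). Hsd17b7 encodes a ketosteroid reductase of the pathway. In R6/2 x DREAM+/- against R6/2 Fdft1 was higher by 0.34 (adjusted p = 0.0041) and Tm7sf2, a sterol reductase, lower at -0.31 (adjusted p = 0.0438), where 2.91% of genes were higher and 4.73% lower. The Fdft1 arrays read 10, 10.09, 10.16 and 10.06 in the double genotype, all above the R6/2 arrays and below the lowest wild-type array, 10.12, in 3 of 4. Tm7sf2 lost its call in 16 of 26 fits.

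**Figure D4:**
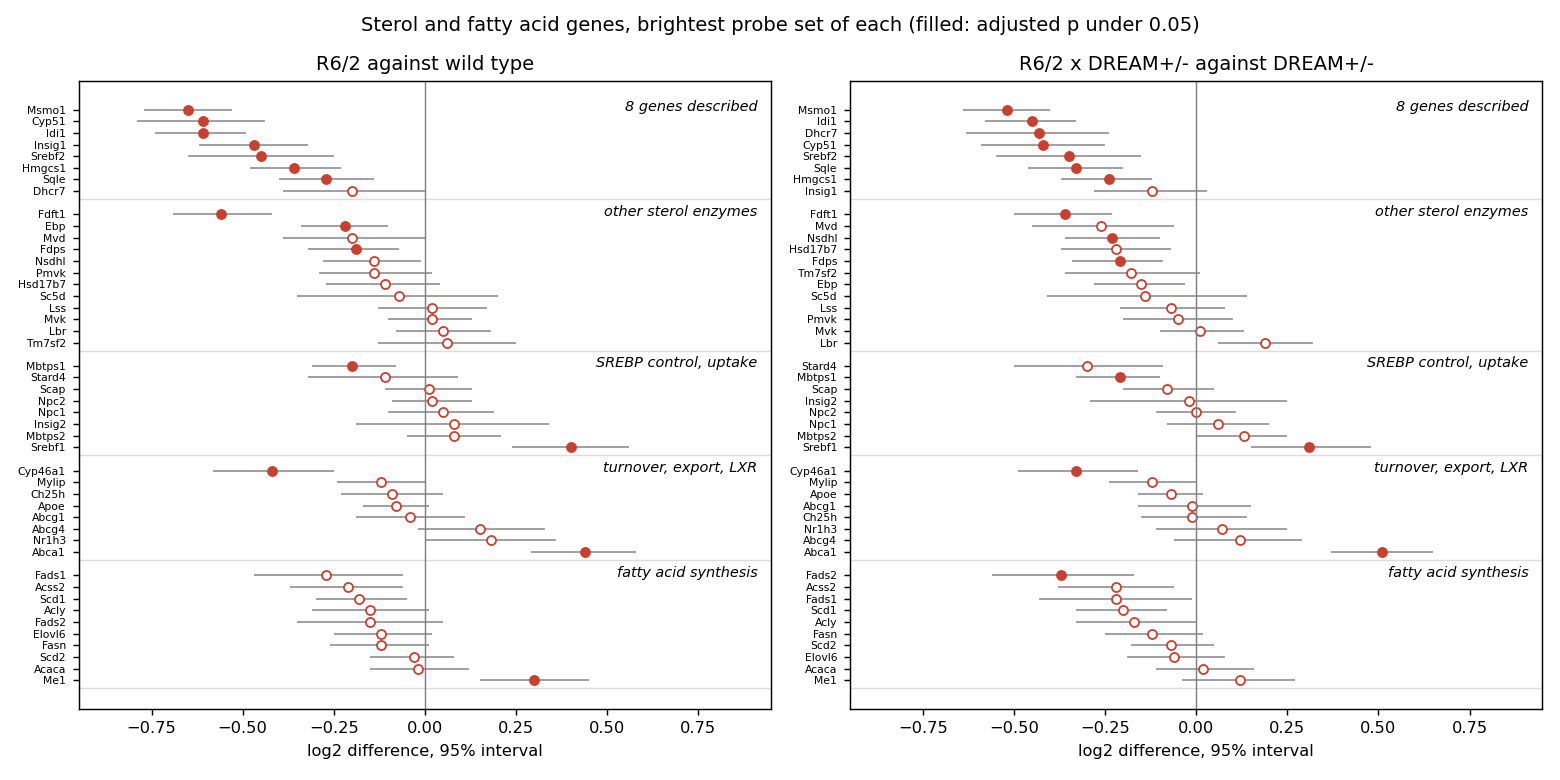
Log2 difference (point) with its 95% interval (line) on the brightest probe set of each gene, grouped into the 8 genes described and 4 lists, in R6/2 against wild type (left) and R6/2 x DREAM+/- against DREAM+/- (right), with filled points for an adjusted p under 0.05. The 8 genes lie below 0 in both panels, while Srebf1 and Abca1 are filled above 0 in both.

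The gene of the related factor SREBP1 went the other way. Srebf1, whose product favours fatty acid genes, read 9.13, 9.32, 9.08 and 9.29 in wild type and 9.62, 9.63, 9.69 and 9.48 in R6/2, with no overlap, and was higher by 0.40 (interval 0.24 to 0.56, adjusted p = 0.00225). On the DREAM+/- background it was higher by 0.31 (adjusted p = 0.0202), with arrays of 8.90, 8.87, 9.04 and 9.04 in DREAM+/- and 9.46, 9.14, 9.19 and 9.31 in the double genotype. In R6/2 x DREAM+/- against R6/2 it was lower, at -0.33 (adjusted p = 0.0164). The first of these calls held in 26 alternative fits, the second was lost in 4 and the third in 2. Of the 8 measured genes of SREBP control and sterol uptake (10 listed), 1 was higher and 1 lower in both R6/2 contrasts, where 8.22% of genes were higher and 7.44% lower against wild type, and 3.63% higher and 4.71% lower on the DREAM+/- background. The lower was the protease gene Mbtps1 at -0.20 (adjusted p = 0.021) and -0.21 (adjusted p = 0.0212). Its call was lost in 3 and 5 of 26 fits. Counting all probe sets of a gene, 1 of 4 of Npc2 was also called lower against wild type (6.42% of all probe sets). It had the sign opposite to the brightest of Npc2. For Stard4 1 of 3 was called lower on the DREAM+/- background (4.01% of all probe sets) and in R6/2 x DREAM+/- against R6/2 (4.22%). Scap, the escort of SREBP, was lower in R6/2 x DREAM+/- than in R6/2, at -0.22 (adjusted p = 0.0298, lost in 9 of 26 fits).

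Among genes of sterol turnover and export, Cyp46a1 was called lower and Abca1 higher with the transgene. These are 2 single genes and not a direction of the list. Cyp46a1, the neuronal cholesterol hydroxylase, read 11.13, 11.22, 10.98 and 11.33 in wild type and 10.75, 10.71, 10.70 and 10.83 in R6/2, with no overlap. It was lower at -0.42 (interval -0.58 to -0.25, adjusted p = 0.00192) and, on the DREAM+/- background, at -0.33 (adjusted p = 0.0176, lost in 3 of 26 fits). Abca1, which exports cholesterol to apolipoproteins and is a target of the oxysterol receptor LXR, read 9.96, 9.84, 10.01 and 9.93 in wild type and 10.30, 10.52, 10.41 and 10.25 in R6/2. It was higher by 0.44 (interval 0.29 to 0.58, adjusted p = 0.000343) and by 0.51 on the DREAM+/- background (adjusted p = 0.000179), and all 3 of its probe sets had that sign, with 1 called. These 2 were the only calls among the 8 measured genes of turnover, export and LXR (10 listed) in both R6/2 contrasts. Of all genes 8.22% were higher and 7.44% lower against wild type, and 3.63% higher and 4.71% lower on the DREAM+/- background. None of the 8 was called in DREAM+/- against wild type or in R6/2 x DREAM+/- against R6/2.

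Fatty acid genes, on which SREBP1 acts, held 1 call in each R6/2 contrast on their brightest probe sets, near the share over all genes. Of 10 measured, 1 was called higher in R6/2 against wild type, malic enzyme Me1 at 0.30 (adjusted p = 0.0106), where 8.22% of genes were higher, and 0 lower, with a median of -0.14 against 0.03 over all genes. In the comparison with DREAM+/- 1 was lower, the desaturase Fads2 at -0.37 (adjusted p = 0.024, lost in 4 of 26 fits), where 4.71% of genes were lower, and 0 higher, with a median of -0.14 against 0.02. Over the alternatives run, 0 to 2 were lower against wild type and 0 to 5 on the DREAM+/- background, 5 with array weights and 0 without DREAM+/- replicate 2 or 3. The desaturase Scd1 gave -0.18 and -0.20, neither called (adjusted p of 0.0614 and 0.0516). No brightest probe set was called in DREAM+/- against wild type or in R6/2 x DREAM+/- against R6/2. Counting all probe sets of a gene, 1 of 6 of Acly and 1 of 3 of Acss2 were called lower in R6/2 against wild type (6.42% of all probe sets). In R6/2 x DREAM+/- against R6/2, 1 of 3 of Acss2 and 1 of 2 of Fads1 were called higher (3.53% of all probe sets). That of Fads1 had the sign opposite to the brightest of Fads1.

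Markers of the cells that make and use sterol also moved with the transgene. Of 14 medium spiny neuron markers 11 were called lower in R6/2 than in wild type, where 7.44% of genes were lower and 8.22% higher, and the mean over the list ran from 11.90 to 11.99 in wild type and from 11.21 to 11.38 in R6/2. Of 12 mature oligodendrocyte markers 5 were lower and 0 higher: Ugt8a at -0.60, Mal at -0.50, Mobp at -0.36, Cldn11 at -0.32 and Aspa at -0.28. The other 7, from Mog at -0.17 to Gjb1 at 0.16, were not called, and the list mean ran from 11.41 to 11.58 in wild type and from 11.22 to 11.38 in R6/2. Of 12 astrocyte markers 4 were lower and S100b was higher (0.43), with a list mean of 10.33 to 10.46 in wild type and 10.18 to 10.25 in R6/2. Oligodendrocyte precursor markers had 1 of 7 lower, and microglia (7), vascular (7) and choroid plexus (6) markers had none called. The mean over the 8 sterol genes ran from 9.49 to 9.58 in wild type and from 9.02 to 9.15 in R6/2. The part of any cell type in the lower sterol genes was not tested.

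On the DREAM+/- background 12 of 14 medium spiny neuron, 4 of 12 oligodendrocyte, 3 of 12 astrocyte and 2 of 7 precursor markers were lower with the transgene, where 4.71% of genes were. In R6/2 x DREAM+/- against R6/2, where 5 sterol probe sets were higher, 6 of 11 cortical projection neuron markers were higher too, where 2.91% of genes were, among them Slc17a7 at 1.02 and Neurod6 at 0.86. The 6 became 3 without both arrays that stand apart, 3 without R6/2 replicate 1 or 4 or replicate 4 of the double genotype, and 3 when only these groups were fitted. Their list mean ran from 8.19 to 8.52 in R6/2, from 8.62 to 8.95 in the double genotype and from 8.71 to 8.87 in wild type. Against wild type 6 of the 11 were lower in R6/2, and on the DREAM+/- background 1 was lower with the transgene. In R6/2 x DREAM+/- against R6/2, 2.91% of genes were higher and 4.73% lower. There the oligodendrocyte list had 1 of 12 higher (Mal, 0.19) and the astrocyte list 1 of 12 (Gfap, 0.52). The microglia list had 1 of 7 higher (Trem2, 0.30) and the choroid plexus list 1 of 6 (Kcne2, 2.68). Of the medium spiny neuron markers 1 was lower (Ppp1r1b, -0.30). In DREAM+/- against wild type 1 of 7 on the precursor list (Olig1, 0.23) and 1 of 6 on the choroid plexus list (Kcne2, 1.86) were higher, where 0.929% of genes were. The other genes of these lists were not called, and none of the other marker lists held a call. The part of these cells in the sterol values was not tested.

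**Figure D5:**
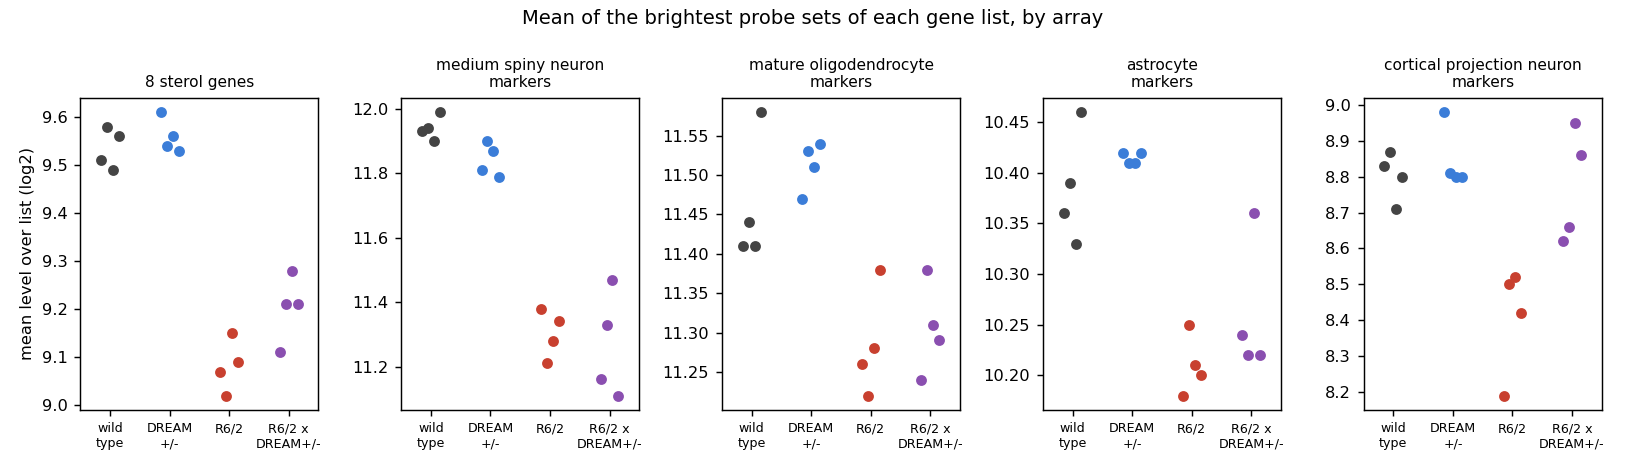
Mean log2 level over the brightest probe sets of 5 gene lists (y axis, a separate scale for each list) in each of the 16 arrays, by genotype. All 5 lists lie lower in all R6/2 arrays than in all wild-type arrays, and the cortical markers of the double genotype lie above those of R6/2.

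Genes of like pattern were sought within genotypes. The mean of the 8 genes (each centred on its genotype mean and scaled) was correlated over the 16 arrays with 23232 other probe sets above the 40th percentile of brightness, so that differences between genotypes did not enter. The 10 most alike were Wwtr1 (r = 0.876), Hp1bp3 (0.873), Rap1a (0.858), Reep1 (0.852), Prkd1 (0.841), Shc4 (0.84), Igfbp5 (0.828), Men1 (0.819), Trib2 (0.808) and Fam124a (0.801). None of them is on the sterol or fatty acid lists. They are the highest of 23232 correlations over only 16 arrays, so some high values would arise without any link. The 8 genes themselves had a median pairwise correlation of 0.11. Whether the 10 are controlled together with the sterol genes was not tested. Over all probe sets compared the median was 0.043 and the 95th percentile 0.526, and of the genes on those lists the desaturase Fads1 was the most alike (0.595).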

How the data were processed

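RNA of striatum was measured on 16 Affymetrix arrays, 4 per genotype, grouped by the sample titles. The authors deposited 1 log2 value per probe set and array, and the submitters' processing notes name RMA and affy, with no version. RMA makes arrays alike in distribution, so a shift shared by most genes would not show. Of 45101 probe sets, 34945 had exactly 1 gene symbol and were tested. Depth does not apply to arrays, and the 4 arrays per genotype limit the precision. The labels call replicates biological.

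Differences were fitted with limma 3.58.1 in R 4.3.3, with 1 mean per genotype over all 16 arrays (12 residual degrees of freedom), no filter on dim probe sets and Benjamini-Hochberg adjustment over 34945 probe sets. The script was tested on simulated data. Alternatives were quantile normalization, a common median, filters at the 40th and 60th percentile of brightness, a trended and robust variance, array weights, a replicate block, only the groups compared, 1 probe set per gene, and arrays left out.

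The 8 genes and all lists were chosen with earlier results of these data known. Named were all their probe sets, Kcnip3, up to 4 genes per other pathway list and contrast by lowest unadjusted p, and the 10 most alike genes. Marker genes, Xist and Eif2s3y among them, were named after their values were seen.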

Additional observations from a re-analysis of the deposited data

Results flagged for a closer look

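In 3 of 68 groups of 4 arrays (17 probe sets in 4 genotypes) 1 array lay far from the other 3, where chance gives about 1 in 20. The measure is the gap to the nearest array divided by the range of the group. For Hmgcs1 1433444_at in wild type it was 0.857, with replicate 2 at 11.38 and the others at 11.50 to 11.52. For Cyp51 1450646_at in R6/2 x DREAM+/- it was 0.9, with replicate 1 at 8.32 and the others at 8.59 to 8.62. For the dim Cyp51 1422534_at in DREAM+/- it was 0.846, with replicate 4 at 5.47 and the others at 5.34 to 5.36.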

How the results depend on the processing

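No difference of the 17 probe sets that was called reversed its sign under the alternatives run. With 1 probe set per gene, 7 of 8 were called in R6/2 against wild type, where 18.2% of genes were. In R6/2 x DREAM+/- against DREAM+/- 7 of 8 were called, where 9.89% of genes were. Both numbers are smaller than over the 17 probe sets because fewer were tested. In R6/2 x DREAM+/- against R6/2 5 of 8 were higher and 1 lower, where 8.87% of genes were called in either direction. In DREAM+/- against wild type the 0 calls became 1 with array weights, 1 with the replicate block and 1 without wild type replicate 3, each time Hmgcs1 1441536_at; the cause was not tested. Of the 17 probe sets, the 6 calls in R6/2 x DREAM+/- against R6/2 became 2 when only these groups were fitted. That fit had fewer arrays to estimate the spread, and its share over all probe sets was 5.01% in place of 7.76%. Leaving out 1 array gave 12 to 13 calls in R6/2 against wild type (10.2% to 15.5% over all probe sets). It gave 8 to 12 in R6/2 x DREAM+/- against DREAM+/- (3.93% to 8.23%) and 0 to 1 in DREAM+/- against wild type (1.21% to 4.01%). In R6/2 x DREAM+/- against R6/2 it gave 1 to 7 (4.03% to 11.4%), and for the interaction 0. The replicate block gave 13, 13, 1 and 4 calls in these comparisons (13.1%, 6.82%, 2.24% and 7.27%) and 0 for the interaction. Replicate numbers gave no clear pairing of the arrays, and 8 of 24 same-number pairs correlated above 0.1 (-0.461 to 0.317). An array's closest match in another genotype, out of 4 arrays, had its number in 16 of 48 cases. The median r was 0.0532 for same-number pairs and -0.00749 for the others. With so few arrays this check cannot exclude a weak pairing. Over all probe sets, calls in DREAM+/- against wild type went from 790 to 1550 with array weights, 1403 without wild type replicate 3 and 463 without wild type replicate 2, and 473, 423, 504 and 462 without DREAM+/- replicates 1 to 4. The 3 dim probe sets lie near background and limit what can be read from them.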
